A study of Homo sapiens with 12 samples.

Results

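A set of 10 genes for enzymes that act on reactive aldehydes, quinones and epoxides was followed across hairpin line and treatment in HEK293T cells, a human embryonic kidney cell line. The genes were chosen by symbol for the reaction their products catalyse: the aldehyde dehydrogenases ALDH2 and ALDH3A2, the aldo-keto reductases AKR1A1 and AKR1B1, the carbonyl reductases CBR1 and CBR3, the quinone reductase NQO1, the alkenal reductase PTGR1, the epoxide hydrolase EPHX1, and PIR, which encodes pirin, a protein with reported quercetinase (flavonol-cleaving) activity. All 10 were among the 23615 genes of the deposited tables. Of these 10, 9 passed the filter on low counts and were tested with 16005 genes in all, and PTGR1 did not.

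Both lines were HEK293T populations transduced with lentivirus and selected with puromycin. The shHuR line carried a hairpin against HuR, the RNA-binding protein encoded by ELAVL1, and the shControl line a control hairpin. Cells of each line were left untreated, given 25 µM HNE(alkyne), an alkyne-tagged form of the lipid-derived aldehyde 4-hydroxynonenal, or given 225 µM hydrogen peroxide (H2O2), both agents for 18 h in the growth medium. Each of the 6 combinations held 2 biological replicates, 12 libraries in all, and each line was a single hairpin population, so that line and hairpin cannot be told apart.

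Total counts per library were 24855946 to 29907258. ELAVL1 was lower in every shHuR library (69.3 to 74.5 CPM, counts scaled to library size) than in every shControl library (86.0 to 99.4 CPM), with a log2 fold change of -0.38 (SE 0.0405). The neurofilament gene NEFL, which HEK293 cells are known to express, was at 17.8 to 29.8 FPKM (a level scaled to gene length and library size) and its relative NEFM averaged 2.24 FPKM, while the renal genes PAX2 and LHX1 averaged 0.0880 and 0.295 FPKM. Markers of leukocytes (PTPRC, 0 to 2 counts), endothelium (PECAM1, 0 to 2 counts) and hepatocytes (ALB, 0 to 6 counts) were at or near 0, and COL1A1 of fibroblasts had 63 to 128 counts. Between the lines the neurofilament genes differed in opposite directions, NEFL by -0.47 (edgeR adjusted p = 9.81e-08) and NEFM by 1.10 (edgeR adjusted p = 2.03e-06) on the log2 scale, and the part of this in the line differences below was not tested. Replicate 1 of the H2O2-treated and replicate 1 of the HNE-treated shControl groups had counts in 17278 and 17524 genes, against 18057 to 18301 in the other libraries, and the HNE-treated shControl pair had the highest chi-square per degree of freedom between replicates (21.7, against 2.94 to 10.5). Results that change without those libraries are given both ways.

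Reactive aldehydes such as 4-hydroxynonenal arise when membrane lipids are oxidised, and they form adducts with proteins. Cells remove them by oxidising the aldehyde to an acid (aldehyde dehydrogenases), by reducing it to an alcohol (aldo-keto and carbonyl reductases) or by saturating the double bond next to it (alkenal reductases), while quinones are reduced to hydroquinones and epoxides are opened with water. Several of the genes, NQO1 the best known, are targets of the transcription factor NRF2, which electrophiles release from its inhibitor KEAP1 and which binds antioxidant response elements.

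The core of that element, TGACNNNGC, was searched on both strands in the RefSeq promoter windows (GRCh38.p14, 300 bases around a transcript start). A window was on hand for 8 of the 10 genes, all except ALDH2 and CBR3. PIR, CBR1 and EPHX1 each held 1 match. The matches are shown because PIR was a gene called for HNE and CBR1 and EPHX1 were called between the lines, with the matched bases in capitals and each stretch read 5′ to 3′ on the gene's own strand.
PIR: gccgcgaagcGCTGAGTCAcggtgaggct
CBR1: tgcgggttctGCAAAGTCAggctagctgg
EPHX1: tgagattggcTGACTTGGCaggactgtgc
In PIR (window chrX:15493284-15493583, minus strand) the match read TGACTCAGC on the opposite strand, at +27 to +35 from the start. The CBR1 match (window chr21:36069774-36070073, plus strand) read TGACTTTGC on the opposite strand, from -159 to -151. EPHX1 held its match, TGACTTGGC on the gene's strand from -78 to -70, in 1 of 3 windows (chr1:225825104-225825403, plus strand). No match lay in the NQO1 window (chr16:69726511-69726810, minus strand), which says only that these letters were not in those 300 bases. Of all 35116 windows 13.3% held a match, and of the 11138 tested genes with a window 19% did in at least 1 window, against 3 of the 8 enzymes.

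Levels per length differed widely among the enzymes. AKR1B1, an aldose reductase that also reduces lipid aldehydes, had the highest mean level, 112 ± 6.75 FPKM (SD, n = 12), which was 37.7% of the summed FPKM of the 10 genes and above that of 94.7% of the tested genes. CBR1 followed at 62.3 ± 9.26 FPKM (SD, n = 12). AKR1A1, the general aldehyde reductase, averaged 31.9 FPKM, mitochondrial ALDH2 averaged 30.8 FPKM, and ALDH3A2, the fatty aldehyde dehydrogenase of the endoplasmic reticulum, averaged 27.2 FPKM. The SDs of these 3 over the 12 libraries were 1.75, 2.09 and 1.96 FPKM and their ranges overlapped, while AKR1B1 and CBR1 each lay apart from their neighbours in the order.

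Lower in that order came PIR, with 10.2 to 23.3 FPKM, and EPHX1, with 10.1 to 15.5 FPKM, whose ranges overlapped. NQO1 (1.85 to 4.56 FPKM) and CBR3 (2.01 to 3.69 FPKM) overlapped too, and the mean FPKM of NQO1 was above that of only 33.8% of the tested genes. PTGR1, which reduces the double bond of alkenals and enones, had 0 to 5 counts per library. It was listed at 0 in all 4 HNE libraries and in replicate 2 of untreated shHuR. A count of 0 in a single library allows up to 3 counts. PTGR1 did not pass the filter, so it was left out of the main tests and no difference is read from these counts.

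**Figure D1:**
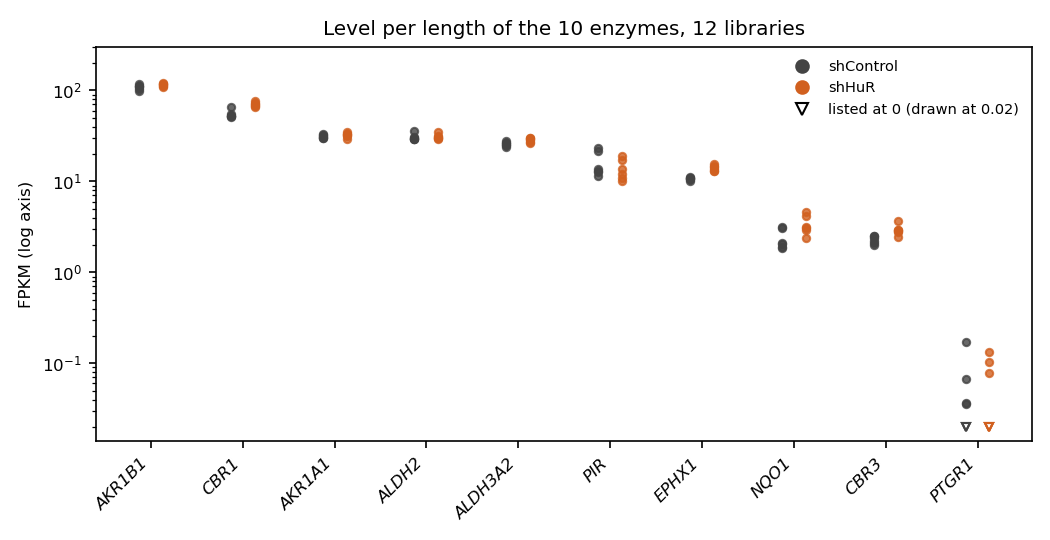
FPKM of the 10 enzymes on a log axis, ordered by mean level, with 1 point per library (shControl dark, shHuR orange, 6 libraries each) and open triangles for libraries in which a gene was listed at 0. AKR1B1 lay between 97.5 and 121 FPKM and PTGR1 between 0 and 0.172 FPKM.

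The lines were compared first. Of the 9 tested enzymes, 4 were higher in shHuR than in shControl over all treatments and none was lower, by edgeR's quasi-likelihood test with an adjusted p under 0.05, where 29.9% of all tested genes were called and 14.1% were called higher. The 4 were NQO1, EPHX1, CBR1 and ALDH3A2. The median over all 9 was 0.14 on the log2 scale, against 0.00 over all genes. In bulk samples, a change in the number of cells that hold a transcript and a change in its amount per cell cannot be told apart. The labels call the libraries biological replicates without saying what was separate, so p-values measure the spread between these libraries.

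CBR1, a cytosolic reductase of carbonyls and quinones, stood at 55.7 and 54.5 CPM in the untreated shControl replicates and at 75.2 and 69.6 CPM in the shHuR ones. With HNE it was at 55.6 and 69.8 CPM in shControl and 77.7 and 80.6 CPM in shHuR. With H2O2 it was at 58.5 and 55.3 CPM in shControl and 72.8 and 70.9 CPM in shHuR. The lines did not overlap within any treatment, and replicate 2 of the HNE-treated shControl group stood far above its partner and just above the lowest shHuR library. Means over all treatments were 74.5 ± 4.20 CPM (SD, n = 6) in shHuR against 58.2 ± 5.83 CPM (SD, n = 6) in shControl, with a log2 fold change of 0.36 (SE 0.0513, 95% interval 0.25 to 0.46, edgeR adjusted p = 5.95e-05).

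EPHX1, the microsomal epoxide hydrolase, had 16.8 and 15.8 CPM in untreated shControl cells and 19.7 and 23.4 CPM in untreated shHuR cells. With HNE the levels were 15.3 and 15.9 CPM in shControl and 20.8 and 21.7 CPM in shHuR. With H2O2 they were 16.2 and 16.7 CPM in shControl and 21.9 and 19.3 CPM in shHuR. Every shHuR library was above every shControl library, whatever the treatment. It averaged 21.1 ± 1.51 CPM (SD, n = 6) in shHuR against 16.1 ± 0.568 CPM (SD, n = 6) in shControl, and the log2 fold change was 0.39 (SE 0.0622, 95% interval 0.26 to 0.52, edgeR adjusted p = 0.000159).

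NQO1, which reduces quinones by transferring 2 electrons at once, had 4.52 and 5.08 CPM in untreated shControl cells and 7.12 and 5.80 CPM in untreated shHuR cells. With HNE it had 7.54 and 7.77 CPM in shControl and 10.0 and 11.0 CPM in shHuR. With H2O2 it had 4.51 and 5.04 CPM in shControl and 7.41 and 7.62 CPM in shHuR. Within each treatment both shHuR libraries were above both shControl libraries, and the HNE-treated libraries were the highest of each line. Over all treatments the log2 fold change was 0.51 (SE 0.0885, 95% interval 0.33 to 0.70, edgeR adjusted p = 0.000325), a 1.43-fold difference and the largest among the 9 enzymes.

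ALDH3A2 differed least among the 4, averaging 102 ± 5.32 CPM (SD, n = 6) in shHuR against 93.0 ± 4.98 CPM (SD, n = 6) in shControl. Its ranges over treatments overlapped (86.1 to 99.5 and 94.9 to 108 CPM). The log2 fold change was 0.14 (SE 0.0431, edgeR adjusted p = 0.0228). It did not pass without replicate 2 of the H2O2-treated shHuR group (0.11, adjusted p = 0.0754), replicate 1 of untreated shHuR (0.13, adjusted p = 0.0514) or replicate 2 of the H2O2-treated shControl group (0.12, adjusted p = 0.0612). The calls of CBR1, EPHX1 and NQO1 over all treatments held in every one of 22 alternatives, each single left-out library included.

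The other 5 tested enzymes did not pass between the lines over all treatments. CBR3, a close relative of CBR1 that lies beside it on chromosome 21, had 1.87 to 2.35 CPM in shControl and 2.28 to 3.42 CPM in shHuR. Its estimate, 0.35 (SE 0.141, 95% interval 0.05 to 0.65, edgeR adjusted p = 0.0692), was about that of CBR1 with a wider interval, since it had 52 to 84 counts per library. PIR had an estimate of -0.20 (SE 0.0750, edgeR adjusted p = 0.0530), the only one below 0. It passed as lower without replicate 1 of untreated shHuR (-0.27, adjusted p = 0.00513) or replicate 1 of untreated shControl (-0.23, adjusted p = 0.0363), as CBR3 passed as higher without replicate 1 of the H2O2-treated shControl group (0.41, adjusted p = 0.0425).

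The most abundant enzyme moved little. AKR1B1 had 119 to 145 CPM in shControl and 131 to 147 CPM in shHuR, with an estimate of 0.08 (95% interval -0.02 to 0.18, edgeR adjusted p = 0.234), and among the alternatives it passed only when replicate 2 of HNE-treated shControl was left out (0.12, adjusted p = 0.0467). The estimate was 0.06 (95% interval -0.05 to 0.17) for AKR1A1 and 0.01 (95% interval -0.10 to 0.12) for ALDH2. AKR1B1 has 7 annotated pseudogenes that could share its reads.

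**Figure D2:**
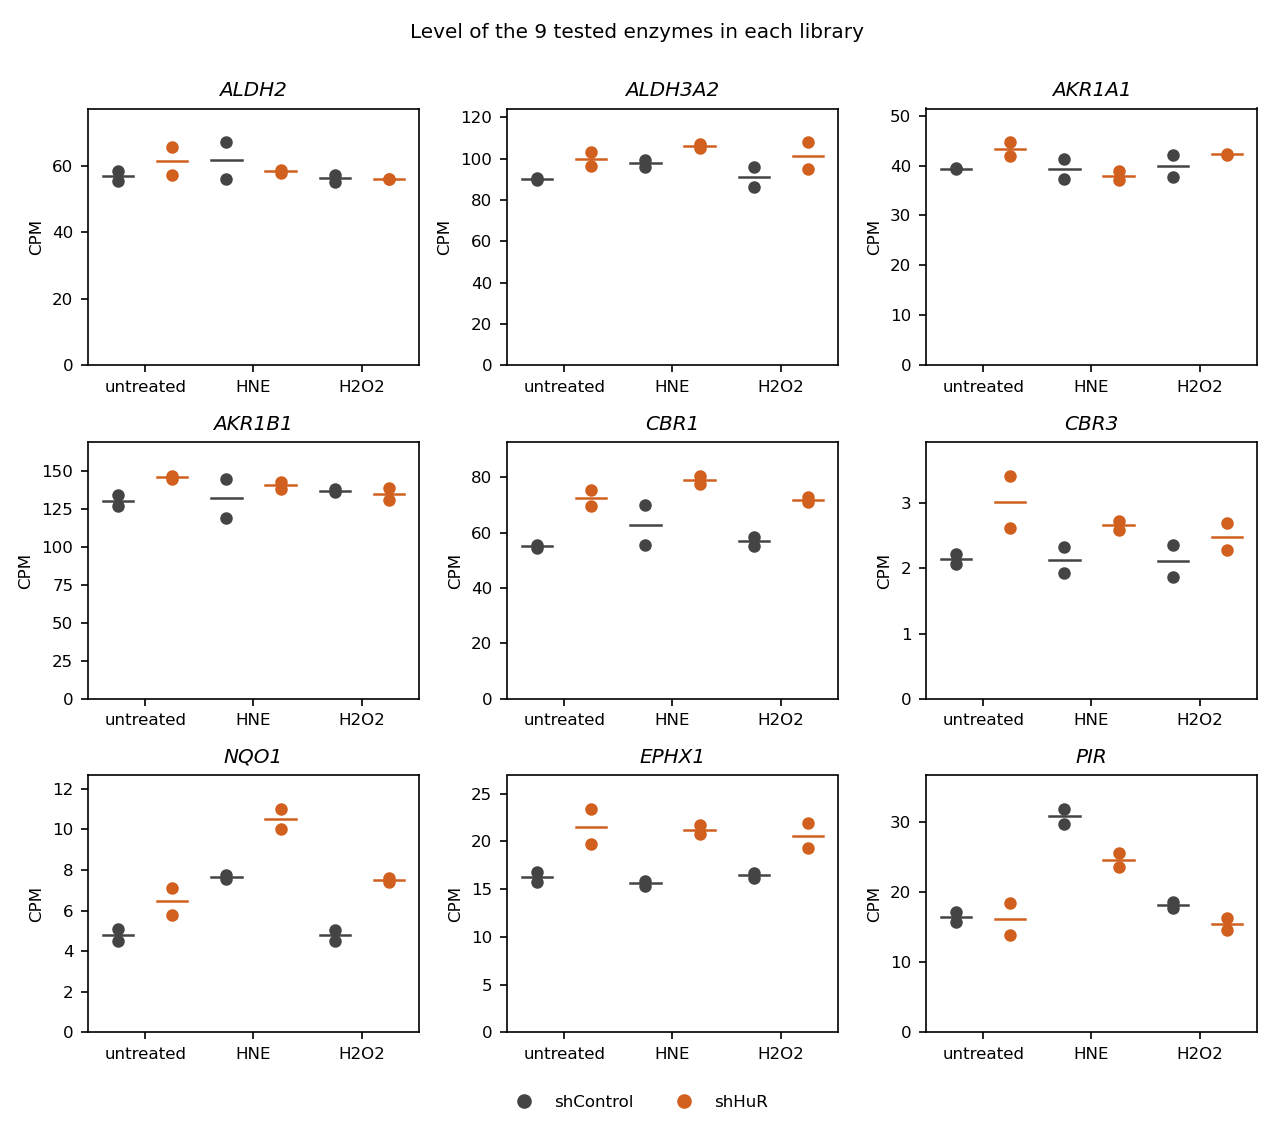
CPM of the 9 tested enzymes in each library by treatment, with 1 point per library, a bar at each group mean, shControl dark and shHuR orange, and vertical axes that start at 0. EPHX1 lay at 15.3 to 16.8 CPM in shControl and 19.3 to 23.4 CPM in shHuR, and the HNE-treated libraries of PIR and NQO1 lay above the others of the same line.

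Within single treatments fewer enzymes passed. In untreated cells 2 of the 9 were called, where 7.98% of all tested genes were (3.5% called higher): CBR1 (0.39, SE 0.0939, edgeR adjusted p = 0.0218) and EPHX1 (0.40, SE 0.110, edgeR adjusted p = 0.0412). With HNE the same 2 genes were called, where 8.27% of all tested genes were (3.24% called higher): CBR1 (0.34, SE 0.0934, edgeR adjusted p = 0.0393) and EPHX1 (0.44, SE 0.111, edgeR adjusted p = 0.0258). With H2O2 the 2 called were CBR1 (0.34, SE 0.0937, edgeR adjusted p = 0.0454) and NQO1 (0.65, SE 0.155, edgeR adjusted p = 0.0205), where 7.19% of all tested genes were called (2.52% called higher). NQO1 had 0.42 in untreated cells (edgeR adjusted p = 0.115) and 0.46 with HNE (edgeR adjusted p = 0.0688), and EPHX1 had 0.32 with H2O2 (edgeR adjusted p = 0.0948), so their estimates pointed the same way in all 3 treatments.

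These calls within a treatment were sensitive to single left-out libraries, inside or outside the comparison. Some were lost with the estimate unchanged, as for CBR1 with HNE (0.34) without replicate 1 or replicate 2 of H2O2-treated shHuR. When replicate 1 of HNE-treated shControl, a library with few detected genes, was left out, the CBR1 difference with HNE was 0.19 (SE 0.0788, edgeR adjusted p = 0.132) in place of 0.34, and the EPHX1 difference was 0.43 (adjusted p = 0.0616). With replicate 1 of H2O2-treated shControl left out as well, an alternative chosen after seeing the data, it was 0.19 for CBR1 with HNE (edgeR adjusted p = 0.0982) and 0.58 for NQO1 with H2O2 (edgeR adjusted p = 0.0760). Without replicate 2 of untreated shHuR the untreated EPHX1 difference was 0.27 (adjusted p = 0.329). The 7 other left-out libraries that ended the CBR1 or EPHX1 call with HNE or untreated were both replicates of the H2O2-treated shHuR, HNE-treated shHuR and untreated shControl groups and replicate 1 of untreated shHuR, with estimates of 0.31 to 0.47. The NQO1 call with H2O2 was lost without either H2O2 replicate of shHuR or replicate 1 of H2O2-treated shControl (0.58 to 0.67, adjusted p 0.112 to 0.132), and the CBR1 call there without any of 9 libraries (0.30 to 0.38, adjusted p 0.0527 to 0.222), namely all 4 H2O2 libraries, both of HNE-treated shHuR, both of untreated shControl and replicate 2 of untreated shHuR.

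The response to HNE was then examined, the agent itself being a substrate of several of these enzymes. Over both lines 2 of the 9 enzymes rose with HNE, PIR and NQO1, where 0.247% of all tested genes (39 of 15780) were called and 0.101% were called higher. The remaining 7 had estimates from -0.09 to 0.16 and did not pass. Among the 39 called genes, ordered by log2 fold change, PIR ranked 3 and NQO1 ranked 4.

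PIR, an iron-binding nuclear protein of the cupin family, had 15.7 and 17.2 CPM in untreated shControl cells and 29.7 and 31.8 CPM in HNE-treated ones. In shHuR cells it had 18.4 and 13.8 CPM untreated and 23.5 and 25.6 CPM with HNE. All 4 HNE libraries were above all 4 untreated ones, and the shControl HNE pair was the highest. Over both lines the log2 fold change was 0.76 (SE 0.0976, 95% interval 0.55 to 0.97, edgeR adjusted p = 0.00635), a 1.69-fold rise. It did not pass without replicate 2 of untreated shHuR (0.71, adjusted p = 0.0940). The deposited PIR counts were fractional in 7 of 12 libraries and are uncertain. The readthrough gene PIR-FIGF had 0 to 14 counts and its partner FIGF 0 to 15, against 397 to 889 of PIR, and summing the 3 changed no PIR call.

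NQO1 had 4.52 to 7.12 CPM in the 4 untreated libraries and 7.54 to 11.0 CPM in the 4 HNE libraries, which did not overlap. Over both lines its log2 fold change was 0.69 (SE 0.110, 95% interval 0.45 to 0.93, edgeR adjusted p = 0.0270), a 1.62-fold rise. The call held without either HNE-treated shControl replicate and was lost without any 1 of the other 6 libraries, where the estimate stayed between 0.63 and 0.75 (adjusted p 0.0523 to 0.157). These 6 were both replicates of untreated shControl, untreated shHuR and HNE-treated shHuR.

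The dehydrogenases, aldehyde reductases and epoxide hydrolase did not pass with HNE. ALDH3A2 had an estimate of 0.10 (95% interval -0.01 to 0.21, edgeR adjusted p = 0.457), ALDH2 of 0.02 (95% interval -0.14 to 0.18), AKR1B1 of -0.02 (95% interval -0.15 to 0.12) and AKR1A1 of -0.09 (95% interval -0.24 to 0.05). CBR1 had 0.16 (95% interval 0.01 to 0.31, edgeR adjusted p = 0.385), CBR3 -0.09 (95% interval -0.47 to 0.28) and EPHX1 -0.04 (95% interval -0.21 to 0.13). All 7 intervals ended at 0.31 or lower, under the lower bounds for PIR and NQO1 (0.55 and 0.45).

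Within single lines 1 such difference passed. In shControl 1 of the 9 enzymes was called, where 0.0187% of all tested genes were: PIR, at 0.90 (SE 0.127, edgeR adjusted p = 0.0298). That call was lost without replicate 1 or 2 of untreated shControl (0.83 and 0.97), replicate 2 of HNE-treated shControl (0.85) or replicate 1 or 2 of HNE-treated shHuR (0.90 each). In shHuR none of the 9 was called by edgeR, where 0.075% of all tested genes were. Of the 9, 3 had an unadjusted p under 0.05 and DESeq2 called 2, PIR and NQO1. The third, AKR1A1, was lower with HNE in shHuR (-0.19, 95% interval -0.38 to -0.01, edgeR unadjusted p = 0.0445). There PIR had 0.62 (SE 0.128, edgeR adjusted p = 0.105) and NQO1 0.71 (SE 0.149, edgeR adjusted p = 0.105), while NQO1 in shControl had 0.67 (SE 0.155, edgeR adjusted p = 0.181).

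The HNE calls within a line depended on the libraries with few detected genes. With replicate 1 of both treated shControl groups left out, 3 enzymes rose with HNE in shControl: PIR, NQO1 (0.69, edgeR adjusted p = 0.0331) and CBR1 (0.33, edgeR adjusted p = 0.0172, against 0.18 with all libraries). In that fit NQO1 (0.71, edgeR adjusted p = 0.0332) and PIR (0.62, edgeR adjusted p = 0.0332) also rose in shHuR. The same fit called 1451 genes for HNE in shControl, against 3 with all libraries, and 176 in shHuR, against 12, so the added calls were not particular to these enzymes. CBR1 in HNE-treated shControl then rests on the single library at 69.8 CPM, assumed to vary like the other groups.

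The interaction of line and HNE asks if the HNE response differs between the lines. None of the 9 enzymes passed with edgeR, none had an unadjusted p under 0.05, and DESeq2 and limma called none. Of all tested genes 0% were called with edgeR, with 1077 at an unadjusted p under 0.05 and 3 called by DESeq2. For NQO1 the interaction was 0.04 (SE 0.216, 95% interval -0.42 to 0.50). The PIR interaction was -0.28 (SE 0.180, 95% interval -0.67 to 0.10, edgeR adjusted p = 0.768).

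H2O2 gave no such rise. Over both lines none of the 9 enzymes was called with edgeR, none had an unadjusted p under 0.05, and DESeq2 and limma called none. Of all tested genes 0% were called with edgeR, with 861 at an unadjusted p under 0.05 and 3 called by DESeq2. Estimates ran from -0.15 (CBR3) to 0.11 (NQO1). PIR had 18.5 and 17.7 CPM in H2O2-treated shControl cells and 14.6 and 16.3 CPM in H2O2-treated shHuR cells, within or near the untreated range of 13.8 to 18.4 CPM, with an estimate of 0.04 (95% interval -0.16 to 0.25). The NQO1 estimate was 0.11 (95% interval -0.14 to 0.37). Within single lines the result was the same: 0 of the 9 were called in shControl and 0 in shHuR with edgeR, DESeq2 or limma, and none had an unadjusted p under 0.05. Of all tested genes 0% were called with edgeR in each line, where DESeq2 called 2 and 3.

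For AKR1B1 with H2O2, both shControl libraries (138 and 136 CPM) were above both untreated ones (127 and 134 CPM), whereas both shHuR libraries (131 and 139 CPM) were below (147 and 145 CPM). That difference between lines did not pass its test (interaction -0.18, SE 0.116, 95% interval -0.43 to 0.07, unadjusted p = 0.138, edgeR adjusted p = 1.00). None of the 9 enzymes passed the interaction of line and H2O2 with edgeR, DESeq2 or limma or had an unadjusted p under 0.05, and edgeR called 0% of all tested genes.

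**Figure D3:**
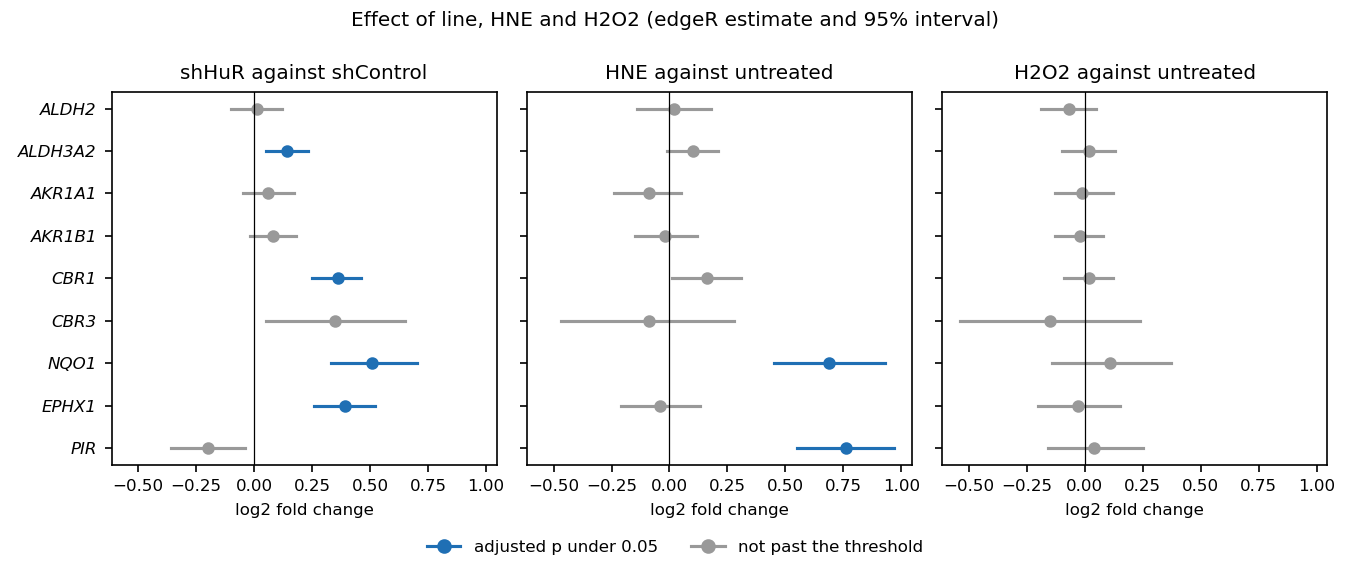
Log2 fold changes of the 9 tested enzymes with 95% intervals for line (shHuR against shControl, 12 libraries), HNE and H2O2 (each against untreated over both lines, 8 libraries), in blue where the edgeR adjusted p was under 0.05. NQO1 was called for both line (0.51) and HNE (0.69), PIR for HNE alone (0.76), and no enzyme for H2O2.

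The 2 agents were also compared directly, without the untreated libraries that both responses share. PIR was higher with HNE than with H2O2 in both lines, and 1 of the 9 enzymes was called, where 0.114% of all tested genes (18 of 15769) were and 0.0698% were called higher. All 4 HNE libraries of PIR (23.5 to 31.8 CPM) lay above all 4 H2O2 libraries (14.6 to 18.5 CPM), a log2 fold change of 0.72 (SE 0.0739, 95% interval 0.56 to 0.88, edgeR adjusted p = 0.00103). This call held in every one of 19 alternatives. NQO1 just missed the threshold (0.58, SE 0.105, 95% interval 0.35 to 0.80, edgeR adjusted p = 0.0503) and passed without replicate 1 (0.56, adjusted p = 0.0381) or replicate 2 (0.55, adjusted p = 0.0474) of HNE-treated shControl. The agents were given at different concentrations, so the comparison is of these doses.

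Related enzymes were read from lists of the same families. Between the lines over all treatments 15 of 52 tested genes of the 7 families were called, near the 29.9% of all tested genes, with 19 at an unadjusted p under 0.05. Among 16 other aldehyde dehydrogenases tested, 2 were higher and 2 lower in shHuR, with a median of -0.06 against 0.00 over all genes. ALDH1A2, a retinaldehyde dehydrogenase, fell from 50.8 ± 6.42 to 36.9 ± 3.94 CPM (SD, n = 6; log2 fold change -0.46). ALDH7A1, which acts in lysine breakdown, had -0.31, and ALDH5A1, the succinate semialdehyde dehydrogenase, 0.31.

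Of 14 other short-chain carbonyl reductases tested, 2 were higher and 4 lower, with a median of 0.05. DHRS3, which reduces all-trans-retinal, fell from 19.3 ± 1.88 to 8.37 ± 1.98 CPM (SD, n = 6; log2 fold change -1.22, edgeR adjusted p = 4.45e-08), the largest difference in any of these lists. CBR4 (-0.39) and DHRS7 (-0.32) were lower as well, in contrast to CBR1 above. Of 10 other quinone and alkenal reductases tested, 2 were higher and 1 lower, with a median of 0.06. TP53I3, a quinone oxidoreductase induced by p53, rose from 2.02 ± 0.565 to 3.88 ± 0.800 CPM (SD, n = 6; log2 fold change 0.95), the cytochrome b5 reductase CYB5R3 had 0.39, and PTGR2, a relative of PTGR1, had -0.42.

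Most other aldo-keto reductases were near 0. Only 3 of 11 passed the filter on low counts, and of these AKR7A2 was higher (0.15) and AKR7L lower (-0.41). AKR1C1, AKR1C2, AKR1C3 and AKR1B10, which many NRF2-active cells express strongly, averaged 0.0283 to 0.0797 FPKM. Their relative AKR1C4 averaged 0.00301 FPKM. These genes were singled out after their values were seen. Between the lines none of 3 tested alcohol dehydrogenases, 2 other epoxide hydrolases or 4 glyoxalase genes was called by edgeR or DESeq2, with 2 of these 9 at an unadjusted p under 0.05. Over the 7 families edgeR called 0 of 52 tested genes for HNE (15 at an unadjusted p under 0.05, 3 by DESeq2), 0 of 51 for H2O2 (2 at an unadjusted p under 0.05, 0 by DESeq2) and 0 of 52 between the agents (17 at an unadjusted p under 0.05, 7 by DESeq2).

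**Figure D4:**
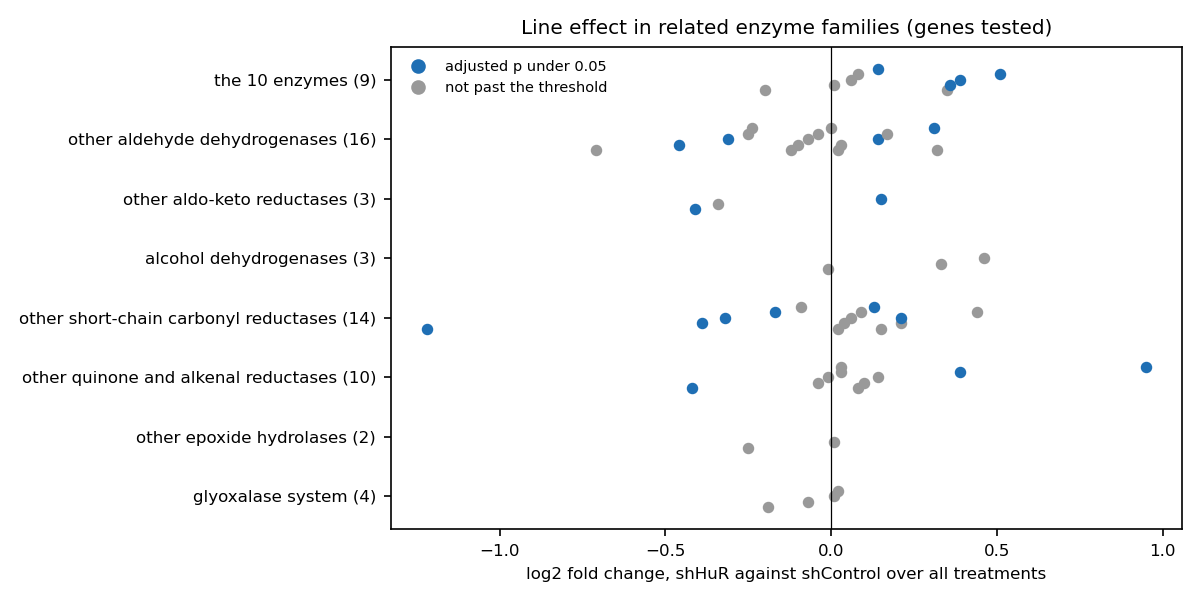
Log2 fold change between the lines (shHuR against shControl, over all treatments) for each tested gene of the 10 enzymes and of 7 related families, with the number tested in brackets and genes past an edgeR adjusted p of 0.05 in blue. The called genes among the 9 tested enzymes all lay above 0, and DHRS3 lay lowest at -1.22.

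Genes on the other strand were read as a check on shared reads, because it is not given in the sources used here whether counting used strand. SETD4, opposite CBR1, had a line difference of -0.05 (SE 0.0519, edgeR adjusted p = 0.539), and TMEM63A, opposite EPHX1, of 0.01 (SE 0.0544, edgeR adjusted p = 0.951). CBR3-AS1, opposite CBR3, had 15 to 30 counts and a difference of -0.16 (SE 0.243, edgeR adjusted p = 0.657). None of the 3 passed the test.

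HuR is known to bind U-rich and AU-rich stretches in 3′ untranslated regions, so the letters TTTNTTT were counted on the gene's strand in the main transcript's 3′ untranslated region (GENCODE annotation, GRCh38, chromosome 16 for NQO1). Among the 4 enzymes higher in shHuR, NQO1 held 9 matches in 1575 bases, and CBR1 (284 bases), EPHX1 (212 bases) and ALDH3A2 (2024 bases) held 0. ALDH2, whose line difference was 0.01, held 40 in 7954 bases. Among the other tested enzymes not called between the lines, PIR held 1 in 205 bases and AKR1B1 1 in 378 bases. AKR1A1 (93 bases) and CBR3 (54 bases) held 0. Of 13426 tested genes with such a region 69.2% held a match, with a median of 2 matches. The median length of their regions was 1103 bases, longer than those of CBR1 and EPHX1. The AU-rich letters ATTTA were held by 69.7% of the tested genes with such a region. They occurred 15 times in ALDH2, 2 in ALDH3A2, 1 each in CBR1, NQO1 and PIR, and 0 in EPHX1, AKR1B1, AKR1A1 and CBR3. The first NQO1 match, at base 94 of the region, is shown with its flanks, the match in capitals.
NQO1: gatttgtgttTTTCTTTttccacaagg
A match is a description of the letters and not a binding site.

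Correlations across the 12 libraries mix both lines and all treatments, so they restate those differences and are given as a description. Pearson's r of log2 CPM was highest for CBR1 with NQO1 (0.802), CBR1 with EPHX1 (0.794) and CBR1 with CBR3 (0.776). It was 0.486 for NQO1 with EPHX1 and 0.475 for ALDH3A2 with EPHX1. AKR1A1 with PIR (-0.401) and EPHX1 with PIR (-0.373) had the lowest values. Among all tested genes the levels most like those of CBR1 over the 12 libraries were those of CIAPIN1 (r = 0.978) and DBNL (0.977), for NQO1 TBL2 (0.970), for EPHX1 KANK2 (0.958) and SMAP2 (0.952), and for PIR MEMO1 (0.956) and ZMAT5 (0.939). For each of the 9 enzymes the closest gene reached a value of 0.892 or more, so a high value does not set any of them apart.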

How the data were processed

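Total RNA of 12 HEK293T libraries was depleted of ribosomal RNA and sequenced as strand-specific single-end reads, per the labels' protocols. The authors deposited estimated counts in one table, by gene symbol, and FPKM values in another. The submitters' processing notes name cutadapt 1.8, Bowtie2 2.2, TopHat2 2.1, Cufflinks 2.2, Cuffnorm and Cuffdiff with GRCh37 (hg19). The annotation, and which tool made which table, are not given in the sources used here. Of the deposited count values 2.25% were fractional, in 701 genes, as reads can be divided between overlapping genes, and they were rounded to whole numbers.

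Tests used edgeR 4.0.16 in R 4.3.3. The filter filterByExpr (minimum count 10, by group) kept 16005 of 23615 genes, TMM factors were 0.965 to 1.03, and CPM was computed from scaled library sizes. Differences within a treatment or line and interactions came from 6 group means of all 12 libraries (6 residual degrees of freedom). The line effect over all treatments was fitted to 12 libraries with a term for treatment, and the effect of an agent over both lines to 8 libraries with a term for line. Benjamini-Hochberg adjustment ran over all genes tested, with a threshold of 0.05. A standard error is the log2 fold change divided by the square root of F, and errors of CPM and FPKM are SD between libraries. Alternatives were DESeq2 1.42.0, other scalings and filters, the replicate number as a block, limma 3.58.1 on log2(FPKM + 1) and log2(FPKM + 0.1), which understates changes of low genes, the compared libraries alone, each library left out, and, added after seeing the data, both shControl libraries with the fewest detected genes left out and PIR summed with its overlapping genes. Fits were tested on simulated data, where the interaction test fell short of the first pass mark, which was then lowered. Correlations used log2(CPM + 0.5).

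The members, the lists of related enzymes and the alternatives were chosen with earlier results of these data known. All 10 members are named whatever their values, from each other list up to 3 called genes with the largest change, and for likeness the 2 genes with the highest correlation, of which 1 is not reported here. The labels name no batch.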

Additional observations from a re-analysis of the deposited data

How the results depend on the processing

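Counts of called enzymes over all treatments between the lines, for H2O2 and for the interactions stayed within 1.5 times under every alternative. Other counts moved. Between the lines in untreated cells, 2 called became 1 with library size alone or the replicate block and 0 with limma without a filter. With HNE, 2 became 1 with the replicate block, limma or both low-detection libraries left out, and 0 with only the compared libraries. With H2O2, 2 became 1 in each of those 4. For HNE over both lines, 2 became 1 with the replicate block and 0 with limma. For HNE in shControl, 1 became 2 without a filter, 3 without the low-detection libraries, and 0 with the replicate block, limma or only the compared libraries. For HNE in shHuR, 0 became 2 with DESeq2, without a filter or without the low-detection libraries, and for HNE against H2O2, 1 became 2 in those and with median-ratio factors. Leaving out 1 library gave 3 to 5 enzymes for line over all treatments, 0 to 2 for line in untreated cells, with HNE and with H2O2, 0 to 2 for HNE over both lines, 0 to 3 for HNE in shControl, 0 for HNE in shHuR and 1 to 2 for HNE against H2O2. Estimates near 0 changed sign in some such fits: for line ALDH2 -0.02 to 0.06; for HNE ALDH2 -0.05 to 0.08, AKR1B1 -0.09 to 0.03, CBR3 -0.16 to 0.01 and EPHX1 -0.09 to 0.01; for H2O2 ALDH3A2 -0.02 to 0.05, AKR1A1 -0.05 to 0.02, AKR1B1 -0.06 to 0.01, CBR1 0.00 to 0.05, EPHX1 -0.07 to 0.04 and PIR -0.02 to 0.14; for the HNE interaction NQO1 -0.11 to 0.19. With both low-detection libraries out, ALDH2 (line) was -0.02, AKR1B1 (HNE) 0.03, and ALDH3A2 and CBR1 (H2O2) -0.01 and 0.00. Between the lines CBR3 passed with library size alone (0.37) and limma (0.26 to 0.34), and PIR without a filter (-0.19). The cause was not tested.

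Over all genes the HNE count of 39 ran from 1 to 334 under other settings and the HNE against H2O2 count of 18 from 2 to 668. With the low-detection libraries left out the HNE interaction called 450 genes, none of the 9 enzymes among them. Summing PIR with PIR-FIGF and FIGF changed no PIR call. Deviations of same-numbered replicates were weakly correlated at most (15 pairs of groups, r from -0.176 to 0.218, median -0.0206, 3 pairs over 0.1). Both low-detection libraries were replicate 1, and the labels do not say what the numbers share. Whether they mark a batch was not tested. The replicate block cost calls in 5 comparisons. CBR3, at 52 to 84 counts per library, had the widest interval of the 9 between the lines, and its call turned on the setting.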
